A study of Mus musculus with 19 samples.

Results

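The globin and heme synthesis genes measured in the mouse heart were 4 adult globin genes (Hba-a1, Hba-a2, Hbb-bs and Hbb-bt), 3 genes for the first and last enzymes of heme synthesis (Alas1, Alas2 and Fech) and the myoglobin gene Mb. They were taken by symbol from a list of 8 among the 55536 genes counted, and that list was chosen by function and with the 16-week levels and fold changes of KO over WT known. All 8 were detected and were among the 15503 genes tested. RNA came from ventricular tissue of wild-type mice (WT) and of mice with an induced heart-specific Mpc1 knockout in adult life, which the labels also call a knockdown (KO), taken 8 or 16 weeks after the knockout was induced. The protein Mpc1 is 1 part of the carrier that takes pyruvate into mitochondria. There were 5 WT and 4 KO libraries at 8 weeks, called WT-8 and KO-8, and 5 of each at 16 weeks, called WT-16 and KO-16. The labels give neither the Cre driver, the inducer, the strain, the age at induction nor whether WT mice carried the transgene or received the inducer. Nor do they tell if the libraries stand for separate mice, so p-values measure only the spread between these libraries, and replicates are numbered in accession order.

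Levels are given in CPM, counts of read pairs scaled to library size with TMM factors, which adjust each library for its composition. Libraries held 16528626 to 27516660 counted pairs at 8 weeks and 8632127 to 26914074 at 16 weeks. The 2 times differed in the share of pairs on an 18S ribosomal RNA gene, which was at most 0.0666% at 8 weeks, 6.88% to 39.1% in WT-16 libraries, and 1.71% to 30.0% in those of KO-16. Time and these differences between the libraries cannot be told apart, so differences between 8 and 16 weeks are given as values only. Mpc1 itself averaged 74.3 CPM in WT-8 and 10.8 in KO-8, and 69.6 in WT-16, against 15.1 in KO-16, with no overlap between WT and KO at either time. All 10 heart muscle markers, such as Myh6 and Tnnt2, were detected. Transcripts from the X and Y chromosomes marked WT-16 replicate 5 and KO-16 replicate 4 as male and the other libraries as female.

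Hemoglobin is built from alpha and beta globin chains, each holding a heme, and its genes are known for very strong expression in red cell precursors. Mature red cells have no nucleus, and young ones still carry globin messenger RNA in the blood. Heme synthesis starts in the mitochondrion with the condensation of glycine and succinyl-CoA, made by Alas2 in red cell precursors and by Alas1 in other tissues, and ends there when Fech, ferrochelatase, inserts iron into protoporphyrin. Heart muscle makes heme for its cytochromes and for myoglobin, the oxygen-binding protein of muscle cells. In RNA from whole ventricle, fewer cells of a type and less RNA per cell cannot be told apart.

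The bases before the RefSeq start sites of the 4 genes below are shown because Alas2 and the globin genes moved together across the libraries. The sequences are the 250 bases before each start site in RefSeq on GRCm38.p6, read 5′ to 3′ on the gene's strand. Capitals mark matches on either strand to 4 motifs. The GATA motif searched was GATAAG, known as a site of GATA factors such as Gata1. The CACCC box, known as a site of Klf1 and related factors, and the CCAAT box, a site of NF-Y, were searched by the letters in their names. The TATA box was searched as ATATAA, and overlapping matches were all counted. These start sites lie inside the Ensembl genes in which the pairs were counted, so that 161 bases of the Hba-a1 window, 168 of the Hbb-bs window, 73 of the Hbb-bt window and 42 of the Alas2 window are within the counted gene, and all distances are to the RefSeq start. These motifs were chosen after the sequences had been seen.
Hba-a1, chr11:32283422-32283671, plus strand: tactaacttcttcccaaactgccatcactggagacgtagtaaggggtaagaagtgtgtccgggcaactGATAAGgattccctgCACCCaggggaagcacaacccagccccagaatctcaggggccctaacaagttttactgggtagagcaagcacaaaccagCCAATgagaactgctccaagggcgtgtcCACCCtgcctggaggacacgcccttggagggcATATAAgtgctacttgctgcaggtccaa
Hbb-bs, chr7:103827929-103828178, minus strand: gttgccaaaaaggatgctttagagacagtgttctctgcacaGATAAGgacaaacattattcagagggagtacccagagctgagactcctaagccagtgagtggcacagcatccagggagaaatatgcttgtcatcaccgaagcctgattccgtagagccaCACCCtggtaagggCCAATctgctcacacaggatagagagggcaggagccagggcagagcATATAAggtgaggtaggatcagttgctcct
Hbb-bt, chr7:103813924-103814173, minus strand: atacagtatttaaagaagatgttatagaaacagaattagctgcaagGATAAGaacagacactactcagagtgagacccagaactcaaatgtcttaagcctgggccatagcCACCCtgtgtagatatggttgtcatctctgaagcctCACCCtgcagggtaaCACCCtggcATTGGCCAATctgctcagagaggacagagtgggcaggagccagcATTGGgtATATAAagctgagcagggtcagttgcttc
Alas2, chrX:150547167-150547416, plus strand: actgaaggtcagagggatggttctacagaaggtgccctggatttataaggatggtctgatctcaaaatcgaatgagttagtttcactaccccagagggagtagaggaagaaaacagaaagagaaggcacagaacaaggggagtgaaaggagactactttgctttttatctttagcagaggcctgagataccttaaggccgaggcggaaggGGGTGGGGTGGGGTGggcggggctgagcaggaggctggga

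The Hba-a1 window held a GATA motif at bases 182 to 177 before the start, CACCC boxes at 167 to 163 and 60 to 56, a CCAAT box at 88 to 84 and a TATA box at 28 to 23. Hbb-bs held each motif once, the GATA motif farthest from the start and the TATA box nearest to it, at bases 30 to 25. Hbb-bt held 1 GATA motif and 1 TATA box, with 3 CACCC boxes and 3 CCAAT boxes, and a CCAAT box on each strand adjoined there. The Alas2 window held no GATA motif, CCAAT box or TATA box in these letters, and its 3 CACCC boxes lay end to end on the opposite strand, the last at bases 30 to 26 before the start. Other spellings of these sites were not searched, so the Alas2 window may hold them. Among 32851 windows of the same length in RefSeq, 6.55% held the GATA motif, 52% the CACCC box, 33.8% the CCAAT box and 9.1% the TATA box. All 4 motifs were held by 46 windows (0.14%), among them those of all 4 globin genes. As the motifs were chosen with the sequences seen, these shares are no test of the globin windows. The windows of Hba-a1 and Hba-a2 are near copies, sharing a run of 297 of 300 bases when the first 50 bases after the start are counted, whereas the longest run shared by Hbb-bs and Hbb-bt was 14 bases. A match is a description of these letters and not a measured binding site.

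The likeness extends into the transcripts and limits how the globin reads can be assigned. Of the distinct 51-base stretches of Hba-a1 transcripts, 72.1% also occurred in Hba-a2, and 89.1% of those of Hba-a2 occurred in Hba-a1. For Hbb-bs and Hbb-bt the shared parts were 53.1% and 58.2%. Reads were 51 bases long per end, so counts of these paired genes are uncertain within each pair. Mb shared 24.8% of its stretches with other genes, mainly the overlapping Gm49540, and Alas2 11.4%, mainly with Apex2, while Alas1 shared 5.66% and Fech 2.91%.

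Per kilobase of exon, Mb stood far above the others in every group, with a mean level of 3644 CPM per kb in WT-8 and 3152 in WT-16. Hbb-bs came next, with 701 CPM per kb in WT-8, followed by Hba-a1 with 92.9. Below them, Alas1 averaged 21.6 CPM per kb in WT-8, Hbb-bt 18.5, Hba-a2 13.9 and Alas2 12.4, and the libraries of neighbours in that order overlapped. Fech was lowest in WT-8 at 6.47 CPM per kb. Pairs that map to several places were not counted, so the levels per kilobase of the globin genes are too low by an amount that is not known, and their places against Alas1, Alas2 and Fech hold for the counted pairs only. In WT-16 the order changed: Hbb-bs averaged 55.8 CPM per kb, Hba-a1 22.2 and Alas1 21.3, while Hba-a2 was lowest at 0.884.

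**Figure D1:**
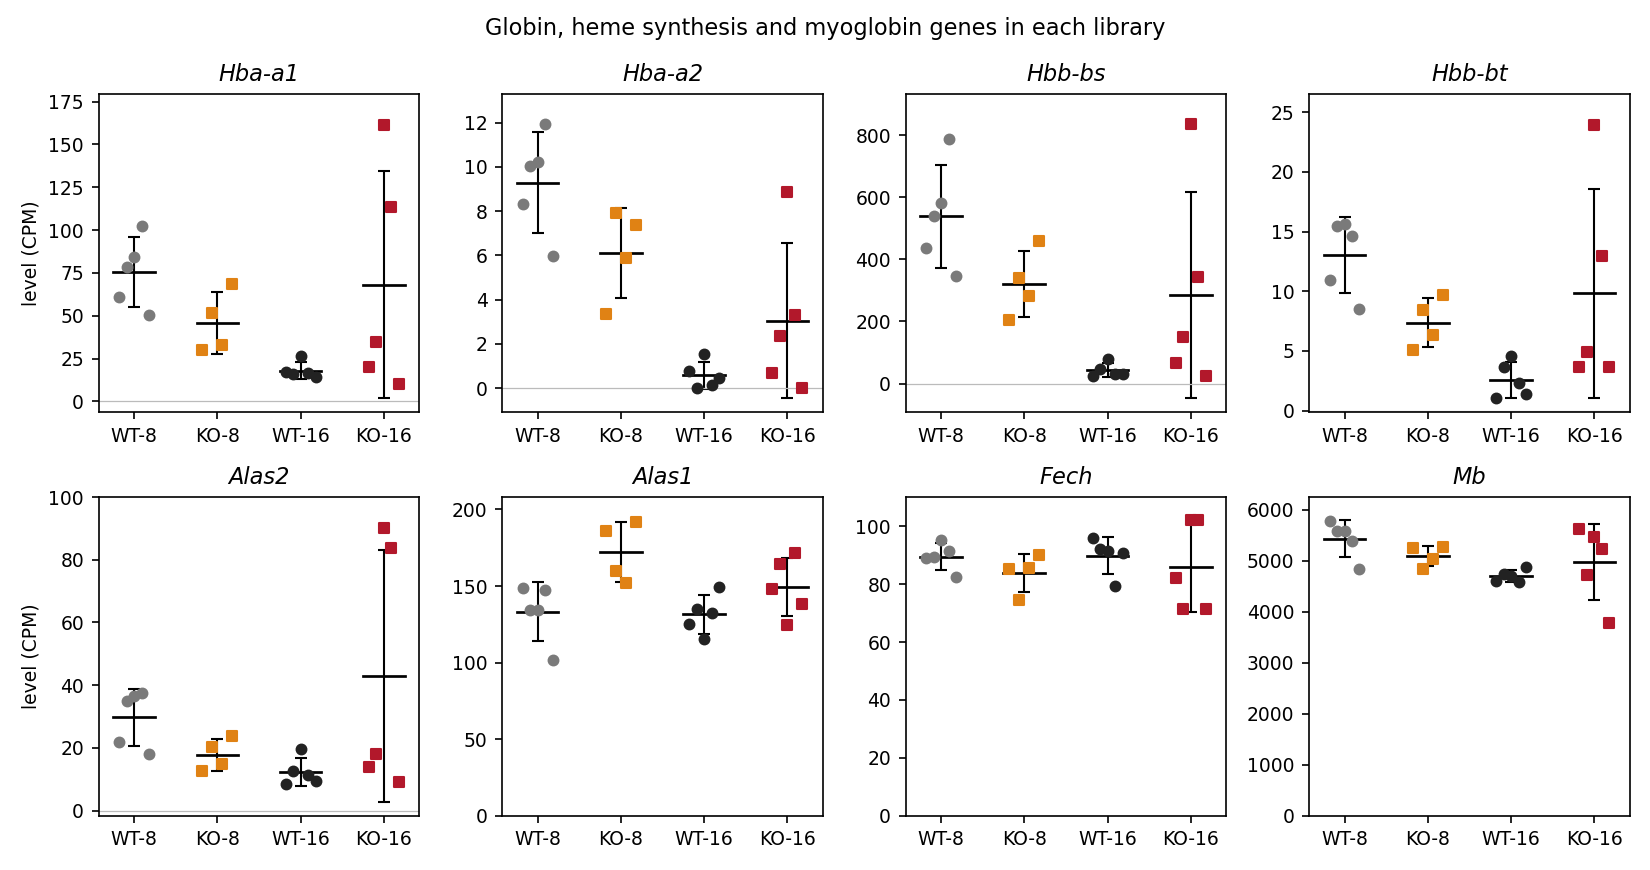
Level of each gene in CPM (y axis, linear) in every library of the 4 groups (x axis); points are libraries, horizontal lines are means and bars are 1 SD. The 4 globin genes and Alas2 spread widely in KO-16, where replicate 3 is highest and Hbb-bs runs from 24.2 to 837 CPM, while Fech and Mb stay within a narrow range in all groups.

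At 8 weeks the globin genes and Alas2 lay lower in KO than in WT, and Alas1 lay higher. Of the 8 genes, 2 passed the threshold of an adjusted p under 0.05 (edgeR quasi-likelihood test): Alas1 was higher and Hbb-bt lower, against 8.19% of all genes tested, 4.01% higher and 4.19% lower. The median log2 fold change of the 8 genes was -0.64, against -0.0072 over all genes. At an unadjusted p under 0.05 there were 6 of 8, against 23% of all genes.

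Hbb-bs (ENSMUSG00000052305, chr7:103826534-103828096, GRCm38, minus strand), an adult beta-globin gene, had 437, 539, 582, 788 and 347 CPM in WT-8 replicates 1 to 5. In KO-8 replicates 1 to 4 it had 204, 340, 282 and 458 CPM. The lowest WT-8 library lay below the highest KO-8 library, so the groups overlapped, although 3 of 4 KO-8 libraries were below every WT-8 library. The log2 fold change was -0.75 (adjusted p = 0.0556, SE 0.22, edgeR), which did not pass. Hbb-bt (ENSMUSG00000073940, chr7:103812524-103813996, minus strand), its neighbour in the beta-globin cluster, had 10.9, 15.4, 15.6, 14.7 and 8.50 CPM in WT-8 and 5.07, 8.39, 6.35 and 9.67 in KO-8. Here too 1 KO-8 library, replicate 4, reached into the WT-8 range. Hbb-bt fell by 0.80 on the log2 scale (adjusted p = 0.0219, SE 0.20, edgeR), a fitted 1.74-fold lower level. This call was lost without WT-8 replicate 2 (adjusted p = 0.0536, edgeR), 3 (0.0501) or 4 (0.0533), or without KO-8 replicate 1 (0.0653) or 3 (0.0594), and when all 19 libraries were fitted together (0.681).

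The alpha-globin genes gave values of the same sign. Hba-a1 (ENSMUSG00000069919, chr11:32283511-32284465, plus strand) had 61.0, 78.6, 84.6, 103 and 50.4 CPM in WT-8, and 30.3, 51.7, 32.8 and 68.5 in KO-8. Its log2 fold change was -0.71 (adjusted p = 0.0726, SE 0.23, edgeR). Hba-a2 (ENSMUSG00000069917, chr11:32296489-32297298, plus strand) had 8.31, 10.05, 10.2, 11.9 and 5.96 CPM in WT-8, and 3.35, 7.90, 5.88 and 7.35 in KO-8. Its log2 fold change was -0.58 (adjusted p = 0.125, SE 0.22, edgeR). Neither passed, and for both the groups overlapped. In all 4 globin genes the lowest of the 9 libraries was KO-8 replicate 1, and the highest was a WT-8 library, replicate 4 for all but Hbb-bt.

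Alas2 and Alas1, the 2 enzymes for the first step of heme synthesis, differed in sign at 8 weeks. Alas2 (ENSMUSG00000025270, chrX:150547375-150570638, plus strand), the red cell form, had 21.8, 35.0, 36.5, 37.5 and 18.1 CPM in WT-8 and 12.55, 20.1, 14.96 and 23.9 in KO-8. The groups overlapped and the log2 fold change was -0.72 (adjusted p = 0.0603, SE 0.22, edgeR). Alas1 (ENSMUSG00000032786, chr9:106233455-106248654, minus strand), the form of other tissues, had 149, 134, 135, 148 and 102 CPM in WT-8 and 186, 160, 152 and 192 in KO-8. Every KO-8 library lay above every WT-8 library, a pattern that 4.98% of all genes tested showed in this direction. Alas1 rose by 0.37 on the log2 scale (adjusted p = 0.0373, SE 0.10, edgeR), a fitted 1.29-fold higher level. The call was lost without WT-8 replicate 2 (adjusted p = 0.073, edgeR) or 3 (0.0685), without KO-8 replicate 1 (0.1) or 4 (0.0912), and when all 19 libraries were fitted together (0.312).

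Fech and Mb differed little between the 8-week groups. Fech (ENSMUSG00000024588, chr18:64452914-64490251, minus strand) had 82.5 to 95.4 CPM in WT-8 (median 89.4) and 74.5 to 90.2 in KO-8, with a log2 fold change of -0.09 (adjusted p = 0.402, SE 0.06, edgeR). Mb (ENSMUSG00000018893, chr15:77015487-77050670, minus strand) had 5776, 5586, 5592, 5387 and 4841 CPM in WT-8 and 5251, 4840, 5038 and 5261 in KO-8. Its log2 fold change was -0.09 (adjusted p = 0.386, SE 0.06, edgeR), and the groups overlapped.

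**Figure D2:**
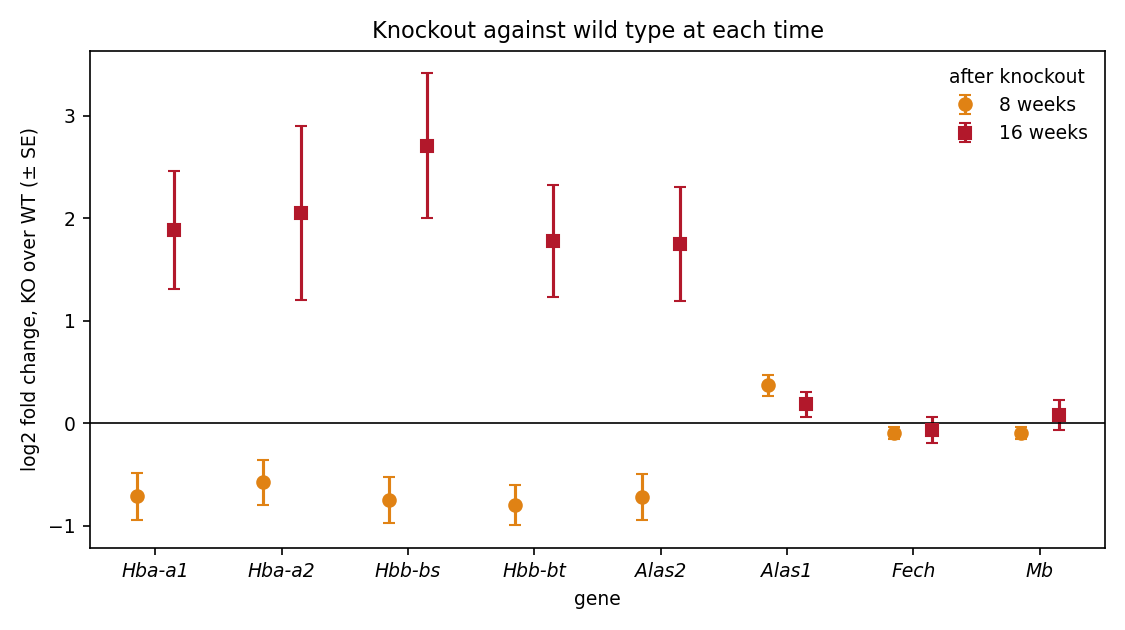
Log2 fold change of KO over WT (y axis) for each gene (x axis) at 8 weeks (circles) and 16 weeks (squares), with bars of 1 SE. The globin genes and Alas2 lie between -0.80 and -0.58 at 8 weeks and between 1.75 and 2.71 at 16 weeks with larger SEs, and Fech and Mb lie near 0 at both times.

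At 16 weeks the mean levels of the globin genes and of Alas2 were higher in KO than in WT, and the KO-16 libraries were far apart. The genes were listed with this comparison known, so its values and the counts of genes passing are a description and not a test. Of the 8 genes 0 passed the threshold in edgeR and 5 had an unadjusted p under 0.05, against 23.5% of all genes, while DESeq2 passed 1, Hbb-bs, and limma-voom 0. In edgeR 4 passed when all 19 libraries were fitted together, Hbb-bs, Hba-a1, Hbb-bt and Alas2, against 3181 of 15503 genes tested. The same 4 passed with no filter (939 of 32638 genes) and without KO-16 replicate 1 (1867 of 15511) or 5 (1867 of 15508). Those 4 and Alas1 passed when scaled to heart muscle markers (1468 of 15503). Among all genes 2.55% passed in edgeR with no setting changed, 7.73% in DESeq2 and 2.5% in limma-voom, and nothing is read from these counts.

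Hbb-bs had 25.3, 46.4, 79.5, 31.8 and 31.5 CPM in WT-16 replicates 1 to 5 and 67.5, 149, 837, 343 and 24.2 CPM in KO-16 replicates 1 to 5. KO-16 replicates 3, 4 and 2 were above every WT-16 library, and KO-16 replicate 5 was below every one of them. The highest of the 10 libraries had 34.5 times the level of the lowest, both of them KO-16 libraries, against 3.86 times over the 9 libraries at 8 weeks. The log2 fold change was 2.71 (SE 0.71), and it was 1.74 without KO-16 replicate 3 and 3.08 without WT-16 replicate 3, the ends of its range with 1 library left out. The share of pairs on the 18S gene was 5.66% in KO-16 replicate 3, 30.0% in replicate 4 and 26.1% in replicate 5, with 12.7% in replicate 1 and 1.71% in replicate 2, the lowest. With the 18S share as a covariate the log2 fold change of Hbb-bs was 2.35, and with the male libraries left out, replicate 4 among them, it was 2.55.

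Hba-a1 repeated the order of the KO-16 libraries. It had 17.4, 15.7, 26.3, 16.6 and 14.02 CPM in WT-16, and 19.9, 34.7, 162, 113 and 10.3 in KO-16, a log2 fold change of 1.89 (SE 0.58). Hbb-bt had 1.01, 3.61, 4.60, 2.33 and 1.38 CPM in WT-16, and 3.65, 4.91, 23.9, 12.9 and 3.65 in KO-16, a log2 fold change of 1.78 (SE 0.55). In both genes KO-16 replicates 2, 3 and 4 were above all WT-16 libraries and replicate 3 was highest. Hba-a2 had 0.758, 0, 1.56, 0.166 and 0.460 CPM in WT-16, against 0.701, 2.37, 8.88, 3.29 and 0 in KO-16. Its counts were low, at most 34 pairs in a WT-16 library and 144 in a KO-16 library, and a count of 0 allows up to 0.542 CPM in WT-16 replicate 2 and 0.498 in KO-16 replicate 5 (3 pairs, counting error only). The fitted log2 fold change of Hba-a2, 2.05 (SE 0.85), ranged from 1.165 to 3.32 when 1 library was left out.

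Alas2 followed the globin genes at 16 weeks and Alas1 did not. Alas2 had 8.60, 12.7, 19.5, 11.3 and 9.42 CPM in WT-16, against 14.02, 18.03, 90.0, 83.7 and 9.13 in KO-16, a log2 fold change of 1.75 (SE 0.56). Its 2 high libraries, KO-16 replicates 3 and 4, were those highest in the globin genes, and the other 3 lay within the WT-16 range. Alas1 had 125, 135, 116, 132 and 149 CPM in WT-16, and 148, 164, 125, 172 and 138 in KO-16, a log2 fold change of 0.19 (SE 0.12). KO-16 replicates 2 and 4 lay above all WT-16 libraries, and the other 3 lay among them. Whether the differences of Alas1 at 8 and 16 weeks, or those of the globin genes, differ between the times was not tested.

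Fech had 79.4 to 96.1 CPM in WT-16 (median 91.4) and 71.6 to 102 in KO-16 (median 82.2), a log2 fold change of -0.06 (SE 0.13). Its lowest KO-16 libraries were replicates 2 and 5 and its highest replicates 3 and 4. Mb had 4608, 4742, 4699, 4577 and 4888 CPM in WT-16, and 5628, 4715, 5474, 5240 and 3786 in KO-16, a log2 fold change of 0.08 (SE 0.14). The WT-16 libraries spanned 1.07-fold for Mb and the KO-16 libraries 1.49-fold, on both sides of the WT-16 range. The summed level of the 10 heart muscle markers was 114992 to 131501 CPM in WT-16, against 85541 to 123452 in KO-16. Scaled to these markers instead, the median of all genes shifted to 0.33, and the log2 fold changes were 0.26 for Fech, so that its sign turned, 0.40 for Mb and 0.51 for Alas1.

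Among the 8 genes, the globin genes differed most between the WT libraries of the 2 times. The mean level in WT-8 over that in WT-16 was 12.6 for Hbb-bs, 4.18 for Hba-a1, 15.8 for Hba-a2, 5.03 for Hbb-bt and 2.42 for Alas2. For Alas1 the ratio was 1.01, for Fech 0.996 and for Mb 1.156. Each of the 4 globin genes was lower in every WT-16 library than in every WT-8 library, as were 21.6% of all genes tested, and none of the other 4 genes was. By mean, Hbb-bs was ordered WT-8 (539 ± 167 CPM, SD, n = 5), KO-8 (321 ± 107, n = 4), KO-16 (284 ± 332, n = 5) and WT-16 (42.9 ± 21.9, n = 5). Neighbours in this order overlapped in their libraries, KO-16 spanned the ranges of the other 3 groups, and WT-16 lay wholly below both 8-week groups.

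The ratios between the globin genes and Alas2 were narrow at 8 weeks and lower and wider at 16 weeks, apart from that of Hba-a1 to Hba-a2. The ratio of Hbb-bs to Hba-a1 in CPM was 6.58 to 8.58 over the 9 libraries at 8 weeks, and 1.45 to 5.18 over the 10 at 16 weeks. That of Hbb-bs to Alas2 was 15.4 to 21.0 at 8 weeks and 2.65 to 9.30 at 16 weeks, and that of Hba-a1 to Alas2 was 2.19 to 2.87 and 1.13 to 2.03. These ranges did not overlap between the times, so Hbb-bs was the lower relative to both partners at 16 weeks in WT and KO alike. The ratio of Hba-a1 to its near copy Hba-a2 was 5.58 to 9.32 at 8 weeks and 14.7 to 100 in the 8 libraries at 16 weeks with any Hba-a2 count. Mb to Fech, by contrast, had overlapping ranges of 58.3 to 65.0 and 48.0 to 68.5.

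**Figure D3:**
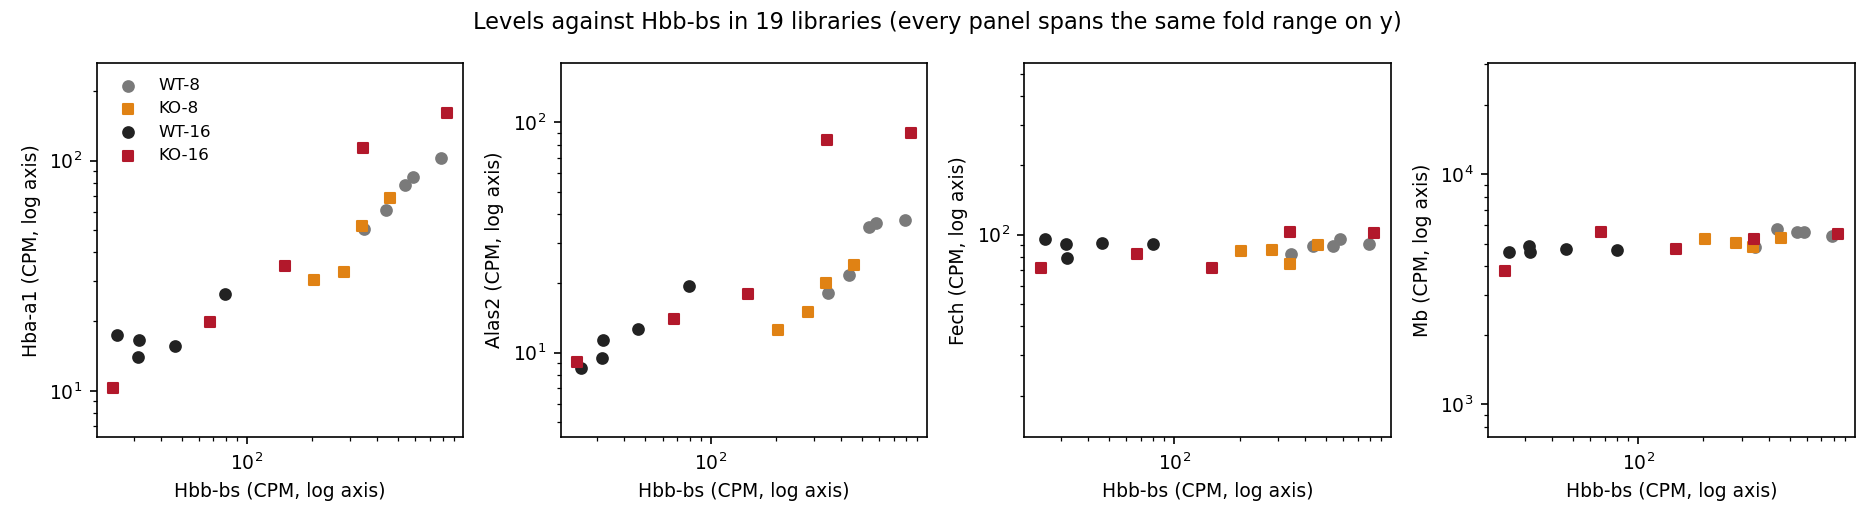
Levels of Hba-a1, Alas2, Fech and Mb (y axes, CPM, log scale, equal fold range in every panel) against Hbb-bs (x axes, CPM, log scale) in 19 libraries colored by group. Hba-a1 and Alas2 climb with Hbb-bs, with the 16-week libraries on a higher line, while Fech and Mb run nearly flat over the 34.5-fold range of Hbb-bs.

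Likeness was measured as Pearson's r of log2 CPM after the mean of each group had been taken off, over the 19 libraries, and is a description because the values of a library share its depth and composition. For Hbb-bs the r was 0.96 with Hba-a1, 0.94 with Alas2, 0.88 with Hbb-bt and 0.82 with Hba-a2. It was 0.69 with Fech, 0.59 with Mb and 0.01 with Alas1. Without KO-16 replicates 3 and 4 these were 0.92, 0.89, 0.70, 0.70, 0.18, 0.45 and 0.28 in the same order, so the value for Fech rested mostly on those 2 libraries. Among 11699 other genes the most like Hbb-bs were Ube2l6 (r 0.95), an enzyme for the ubiquitin-like protein ISG15, Fgfr1 (0.91), a growth factor receptor, Tent5c (0.91), a poly(A) polymerase, and Fntb (0.90), a farnesyltransferase subunit. Dennd5a (0.90), Atp6ap1, Flii and Actn4 (0.89 each) came next. Ube2l6 had 37.5 CPM in KO-16 replicate 3, 22.2 in replicate 4 and at most 8.39 in the other 3, and Tent5c had 54.1, 49.5 and at most 10.8. Fgfr1 had 19.6, 18.3 and at most 14.5 CPM in the same libraries, a much smaller range. Ube2l6 and Tent5c are also in the list of red cell genes, which was chosen with earlier results of these data known.

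The genes most like Mb were Jmjd8 (r 0.92), Hsd17b10 (0.88), a mitochondrial dehydrogenase, Flot1 (0.86), a membrane scaffold protein, Zcchc3 (0.85) and Aktip (0.84). None of them was among those most like Hbb-bs. Mb had an r of 0.66 with Fech and 0.34 with Alas1.

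Red cell genes outside the 8 were read for the same libraries. Of the 30 listed, 29 were found and 20 tested, Alas2 and Fech included. At 8 weeks 3 of the 20 fell and none rose (edgeR), with a list median of -0.13, against 4.19% of all genes that fell. Among them were Bpgm, the enzyme that makes 2,3-bisphosphoglycerate in red cells (log2 fold change -0.48, SE 0.11, adjusted p = 0.0163), and Tent5c (-0.71, adjusted p = 0.0382, SE 0.19). Bpgm kept its call in each of the 9 fits with 1 library left out (adjusted p at most 0.0473, edgeR), while Tent5c kept its own in 3 of 9 (at most 0.102). Tent5c lost it in DESeq2, in limma-voom and without WT-8 replicate 2, 3 or 4 or KO-8 replicate 1, 2 or 3, and both genes lost it when all 19 libraries were fitted together (0.705 for Bpgm). Bpgm had 14.8, 19.4, 22.7, 19.6 and 16.6 CPM in WT-8 and 12.9, 13.1, 11.6 and 15.1 in KO-8, where 1 library, replicate 4, reached the lowest WT-8 value.

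At 16 weeks 0 of the 20 red cell genes passed in edgeR, against 2.55% of all genes. At an unadjusted p under 0.05 there were 7, against 23.5%, with a list median of 0.29. DESeq2 passed 1, Bpgm, against 7.73% of all genes, and limma-voom 0, against 2.5%. Without KO-16 replicate 1 there were 6 that rose in edgeR, against 990 of 15511 genes tested, and without replicate 5 there were 5, against 1030 of 15508. The list median was below 0 in limma-voom (-0.04) and without KO-16 replicate 2 (-0.0033). Slc4a1, the anion exchanger of the red cell membrane, had 0 counts in WT-16 replicates 1 and 5, 0.542 to 0.832 CPM in the other 3, and 1.19, 1.73, 7.89, 6.59 and 0.166 CPM in KO-16. Bpgm had 11.7 to 17.4 CPM in WT-16, against 16.4, 20.3, 45.6, 48.1 and 14.4 in KO-16. In both genes KO-16 replicates 3 and 4 were the highest of the 10 libraries, as in the globin genes and Alas2. The list was chosen with earlier results of these data known, so this likeness is a description and not a test.

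The summed level of the 27 red cell genes outside the 8 was 531 to 592 CPM in WT-16, against 500 to 678 in KO-16, with 678 in both replicate 3 and replicate 4. At 8 weeks it was 544 to 583 CPM in WT and 472 to 570 in KO. Much of that sum came from genes that heart muscle also expresses: Ank1, named after its values had been seen, alone had 147 to 222 CPM. Klf1 and Gata1, which define red cell precursors, and 10 other genes of the list averaged under 1 CPM. The part that red cells in the tissue had in the differences of the 8 genes was not tested.

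**Figure D4:**
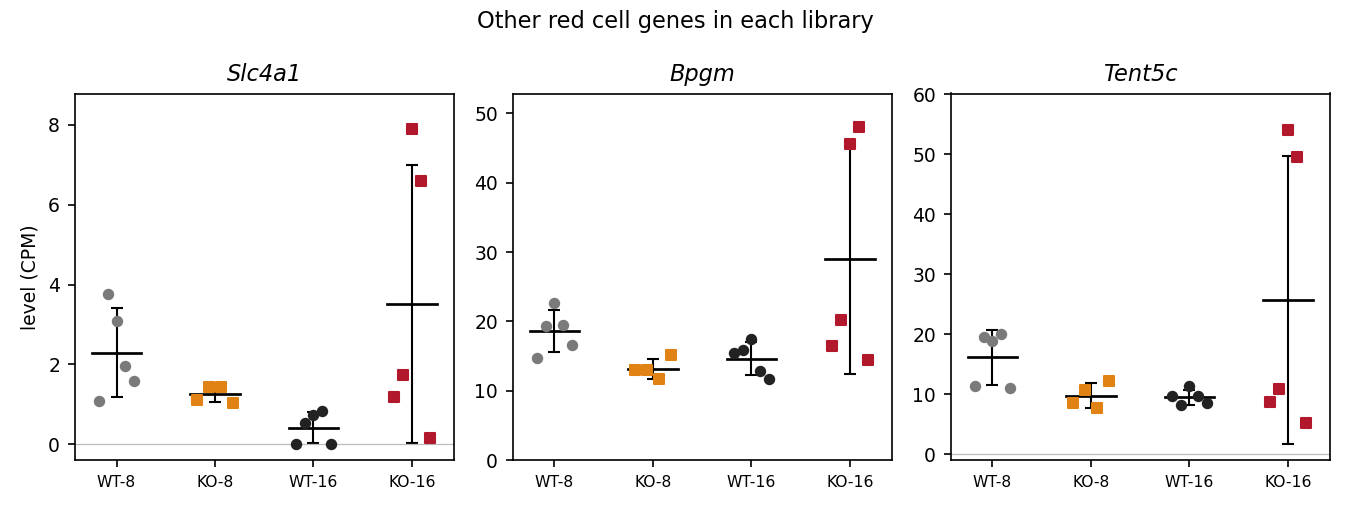
Levels in CPM (y axis, linear) of Slc4a1, Bpgm and Tent5c in every library of the 4 groups (x axis), with means as lines and bars of 1 SD. In each gene KO-16 replicates 3 and 4 stand above the other 16-week libraries, as for Bpgm with 45.6 and 48.1 CPM against at most 20.3. This is a description, as the red cell list was chosen with earlier results of these data known. Tent5c was also among the genes ranked most like Hbb-bs in these libraries.

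Other blood and tissue markers were read alongside. At 8 weeks 0 of 5 platelet, 0 of 3 B cell, 0 of 2 T cell and 0 of 10 macrophage genes tested passed (edgeR), against 8.19% of all genes. At an unadjusted p under 0.05 there were 0, 0, 0 and 2 (23% of all genes). DESeq2 and limma-voom called 1 of them, Lyve1 of macrophages, against 1347 and 1251 of 15503 genes tested. Of 3 neutrophil genes 1 fell, against 4.19% of all genes. It was S100a9, at 0.436 to 1.14 CPM in WT-8 and 0.0841 to 0.448 in KO-8, named as the only member called. Of 10 endothelial genes 4 rose at 8 weeks, Cdh5, Egfl7, Pecam1 and Fabp4, by 0.21 to 0.38 on the log2 scale, against 4.01% of all genes that rose, where the globin genes had negative values. The summed endothelial level was 815 to 930 CPM in WT-8 and 985 to 1077 in KO-8. Of 10 heart muscle genes Actn2 rose and Ryr2 and Pln fell at 8 weeks, against 4.01% and 4.19% of all genes. At 16 weeks 1 of these genes passed, against 2.55% of all genes, Tie1 of endothelium, which rose by 0.68 on the log2 scale (adjusted p = 0.0353, SE 0.15, edgeR), and it kept its call in 3 of 10 fits with 1 library left out, those without WT-16 replicate 3 or KO-16 replicate 1 or 5 (adjusted p up to 0.105, edgeR, in the others). At 8 weeks Cdh5 and Egfl7 kept theirs in 9 of 9 such fits, Pecam1 in 4 of 9 and Fabp4 in 2 of 9 (adjusted p up to 0.0752 and 0.0874, edgeR). Unadjusted p-values under 0.05 at 16 weeks numbered 2 of 5 platelet, 0 of 3 neutrophil, 0 of 3 B cell, 1 of 2 T cell, 2 of 10 macrophage, 8 of 10 endothelial and 4 of 10 heart muscle genes, against 23.5% of all genes. DESeq2 called C1qc, Cd68, Egfl7, Emcn, Tie1, Pln and Ryr2 among them, against 7.73% of all genes. Pln alone was called by limma-voom, against 2.5% of all genes. The summed platelet level was 6.504 to 16.4 CPM in WT-16, against 10.02 to 33.3 in KO-16, highest in KO-16 replicate 4.

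Among the 9 enzymes of heme synthesis, Alas1 was the only one that rose at 8 weeks and none fell (edgeR), against 8.19% of all genes called, and the list median was -0.07. The 6 enzymes outside the 8 genes above had summed levels of 96.5 to 102 CPM in WT-8 and 90.5 to 99.0 in KO-8. Uros, uroporphyrinogen III synthase, had a log2 fold change of -0.25 (adjusted p = 0.0703, SE 0.08, edgeR), and Cpox, coproporphyrinogen oxidase, -0.17 (adjusted p = 0.139, SE 0.07). Alad, Urod and Ppox had log2 fold changes from -0.07 to 0.01. At 16 weeks Cpox was the only enzyme that passed. It had 37.2, 32.5, 32.7, 38.8 and 32.9 CPM in WT-16, against 28.6, 24.7, 23.2, 23.2 and 23.4 in KO-16, so every KO-16 library was below every WT-16 library, as in 2.3% of all genes. Cpox fell by 0.49 on the log2 scale (adjusted p = 0.0342, SE 0.11, edgeR), a fitted 1.41-fold lower level. It kept the call in 2 of 10 fits with 1 library left out, those without KO-16 replicate 1 or 5, with adjusted p up to 0.105 (edgeR) in the others. The call was also lost with either file of the 16-week samples alone, with the 18S share as a covariate, in the libraries over 20% 18S alone, with the male libraries left out, and when scaled to heart muscle markers, where the log2 fold change was -0.19. Its direction was opposite to that of Alas2, which had its highest levels in KO-16 replicates 3 and 4.

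**Figure D5:**
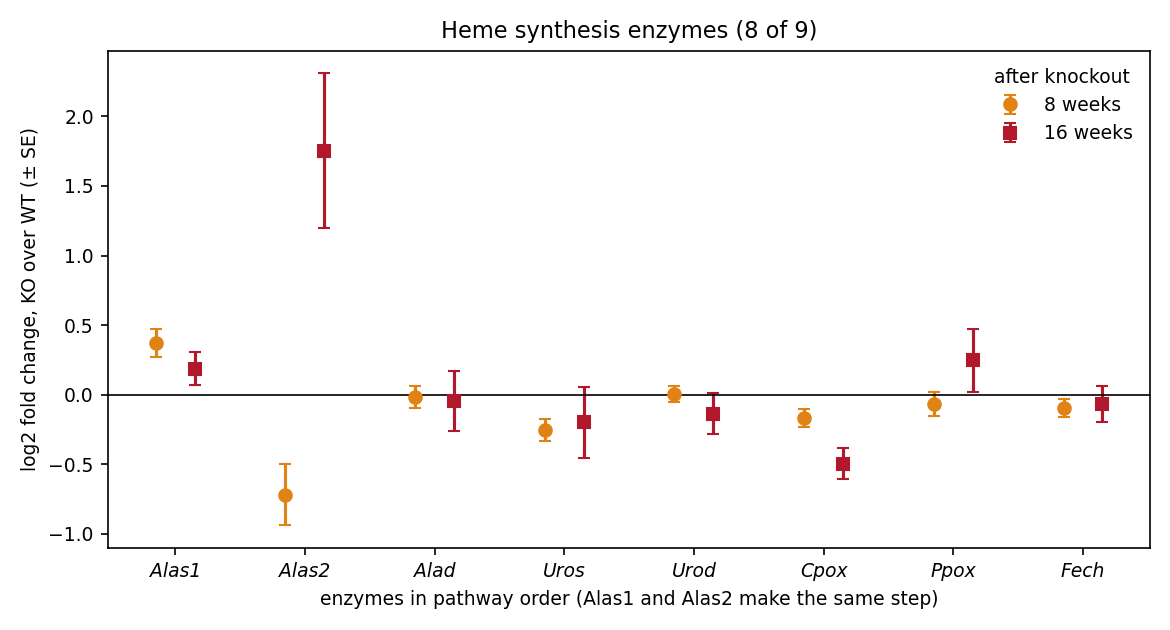
Log2 fold change of KO over WT (y axis, bars of 1 SE) for 8 of the 9 enzymes of heme synthesis in pathway order (x axis) at 8 weeks (circles) and 16 weeks (squares). Alas2 stands apart, at -0.72 and 1.75, while the others lie between -0.49 and 0.37.

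Of 17 genes that supply heme synthesis with substrates or attach heme A and heme c, 0 passed at either time in edgeR, with 4 at an unadjusted p under 0.05 at each time, a share like the 23% and 23.5% of all genes at 8 and 16 weeks. Iscu, the iron-sulfur cluster scaffold, had 27.2 ± 1.599 CPM in WT-8 (SD, n = 5) and 23.0 ± 2.81 in KO-8 (n = 4). Slc25a37, mitoferrin 1, an iron importer of red cell precursors, had a log2 fold change of -0.27 (SE 0.11) at 8 weeks and 0.44 (SE 0.33) at 16 weeks. Of 18 genes of heme and iron handling tested, 0 passed at either time in edgeR, with 4 at 8 weeks and 7 at 16 weeks at an unadjusted p under 0.05, against the same 23% and 23.5%. Fth1, ferritin heavy chain, which stores iron, had 319 ± 7.76 CPM in WT-8 and 276 ± 28.8 in KO-8, and 268 ± 28.4 in WT-16, against 201 ± 23.5 in KO-16. Flvcr2, a membrane transporter, had 2.16 ± 0.468 CPM in WT-16, against 0.980 ± 0.335 in KO-16 (n = 5 each), a log2 fold change of -1.15 (adjusted p = 0.0638, SE 0.32, edgeR). DESeq2 called 2 genes of these 2 lists at 8 weeks, Fth1 among them, against 1347 of 15503 genes tested. At 16 weeks it called Flvcr2 and Fth1, against 7.73% of all genes. The only call of limma-voom in these lists was Flvcr2 at 16 weeks, against 2.5% of all genes.

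Among other globin genes, the embryonic Hba-x, Hbb-bh1, Hbb-bh2 and Hbb-y had 0 counts in all 19 libraries, which allows up to 3 pairs in each, and Hbq1a, Hbq1b and the neuronal Ngb averaged under 1 CPM. Cygb, cytoglobin, a globin of fibroblasts and related cells, was the only one tested. It had 24.99, 23.2, 24.8, 24.7 and 23.2 CPM in WT-8 and 27.9, 28.3, 32.2 and 31.1 in KO-8, with no overlap. Of all genes tested, 4.98% showed no overlap with KO higher at 8 weeks, and 4.01% were called higher. Cygb rose by 0.31 on the log2 scale (adjusted p = 0.00581, SE 0.06, edgeR) and kept its call in each of the 9 fits with 1 library left out, though not when all 19 libraries were fitted together (adjusted p = 0.552). At 16 weeks it had 23.8, 21.3, 19.2, 21.6 and 19.1 CPM in WT and 26.3, 32.1, 48.8, 30.4 and 26.6 in KO, again with no overlap, as in 1.99% of all genes with KO higher, and a log2 fold change of 0.66 (adjusted p = 0.0527, SE 0.17, edgeR), which did not pass. Its sign was positive at both times, unlike that of the hemoglobin genes.

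Of 17 known regulators of Alas1 and myoglobin expression, 2 fell at 8 weeks and none rose (edgeR), against 4.19% of all genes that fell, with a list median of -0.09. Ppargc1a, the coactivator PGC-1alpha, known to induce Alas1 and mitochondrial genes, had 176, 151, 142, 189 and 139 CPM in WT-8 and 118, 131, 97.1 and 141 in KO-8, with 1 KO-8 library inside the WT-8 range. It fell by 0.39 on the log2 scale (adjusted p = 0.0403, SE 0.11, edgeR), while Alas1 rose. Ppp3cb, a catalytic subunit of calcineurin, fell by 0.19 (adjusted p = 0.0363, SE 0.05, edgeR). Ppargc1a kept its call in 3 of 9 fits with 1 library left out and Ppp3cb in 1 of 9, with adjusted p up to 0.102 and 0.101 (edgeR), and both lost it when all 19 libraries were fitted together (0.871 and 0.581). At 16 weeks 0 of 17 passed in edgeR, against 2.55% of all genes, and 8 had an unadjusted p under 0.05, against 23.5%. DESeq2 passed 1, Mef2a, against 7.73% of all genes, and limma-voom 0, against 2.5%. Ppargc1a had 181, 283, 194, 241 and 499 CPM in WT-16, against 283, 80.6, 82.3, 107 and 192 in KO-16, where replicates 2, 3 and 4, the 3 libraries highest in Hbb-bs, were below all WT-16 libraries. Mef2a, a transcription factor of muscle genes, had 412 ± 28.5 CPM in WT-16, against 280 ± 83.2 in KO-16 (n = 5 each), a log2 fold change of -0.55 (adjusted p = 0.0871, SE 0.17, edgeR).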

How the data were processed

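Ventricular RNA, depleted of ribosomal RNA with Ribo-Zero Gold and made into stranded paired-end libraries per the labels' protocols, was measured in 19 libraries. The authors deposited raw counts, read pairs per gene for 55536 genes, made with featureCounts 1.6.3 on GRCm38 with Ensembl 96 per the file headers; pairs that map to several places were not counted, and counting was by strand. Per the submitters' processing notes cutadapt 1.16, STAR, RSEM, SAMtools and FastQC were used, with no order given. The 2 deposited files of each 16-week sample were summed; their chi-square per gene was 1.34 to 3.15, and between libraries of a group it was never under 6.31. Libraries held 8632127 to 27516660 pairs, which sets the precision of low genes such as Hba-a2, and intervals for counts of 0 cover counting error only.

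Each time was tested on its own libraries with edgeR 4.0.16 in R 4.3.3 (quasi-likelihood, TMM factors over all 19 libraries, filterByExpr, 15503 genes, Benjamini-Hochberg adjustment, threshold 0.05), because the common coefficient of variation was 0.0936 at 8 weeks and 0.240 at 16 weeks. The script was tested on simulated data. Alternatives were a fit to all 19 libraries, RLE size factors, DESeq2 1.42.0, limma-voom (limma 3.58.1), no filter on low counts or one of 1 CPM in 4 libraries, ribosomal and mitochondrial genes left out, each library left out, single files and sex as a covariate. Added after the data were seen were scaling to heart muscle markers, the 18S share as a covariate, libraries over 20% 18S alone and male libraries left out. The members and lists were chosen with earlier results of these data known. Genes named were all 8 members, up to 4 per list and time with the smallest adjusted p and a mean of at least 1 CPM in a group, and the 8 most like Hbb-bs and 5 most like Mb (log2 CPM with a prior count of 2, mean of at least 1 CPM, no predicted or clone names). Tables and figures used Python 3.11.15 with pandas 2.3.3 and matplotlib 3.10.9. Some genes of the lists that are counted in the totals are not reported here by name. No sample was left out.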

Additional observations from a re-analysis of the deposited data

Results flagged for a closer look

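Hba-a1 in WT-16 replicate 3 stood apart from the other libraries of its group, with 26.3 CPM against 14.02 to 17.4 in the other 4. Its gap to the nearest library was 0.721 of the range of the group, above the critical value of 0.71 for 5 samples. The 8 genes in 4 groups gave 32 such checks, of which chance passes about 1 in 20. This library had 6.88% of its pairs on the 18S gene, the lowest share in WT-16, and 19678367 pairs, the most in WT-16; the part of either in the value was not tested.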

How the results depend on the processing

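At 8 weeks 1270 genes passed, against 31 in the fit to all 19 libraries and 877 to 1192 with 1 library left out. At 16 weeks 396 genes passed, against 3181 in the fit to all 19 libraries, 939 with no filter, 1199 with DESeq2, 1468 when scaled to heart muscle markers, 33 with a covariate for the 18S share, and 12 with the male libraries left out. With 1 library left out at 16 weeks the count ran from 37 to 1867: 37 without WT-16 replicate 1 or 2, 38 without 4, 49 without 5 and 230 without 3, and 1867 without KO-16 replicate 1 or 5, 76 without 2, 69 without 3 and 45 without 4. Of the calls at 16 weeks 267 were higher and 129 lower, against 113 and 275 in limma-voom and 1321 and 147 when scaled to heart muscle markers. The cause of these differences was not tested. All 8 genes kept their sign at 8 weeks under the 17 alternatives. With no setting changed 2 passed, against 1270 of 15503 genes tested. There were 6 with no filter (1764 of 32638) and 6 without WT-8 replicate 5 (1138 of 15431). Without KO-8 replicate 4 there were 4 (1192 of 15701), and without WT-8 replicate 1 there were 3 (943 of 15445). Only 1 passed without WT-8 replicate 4 (888 of 15440) or KO-8 replicate 3 (877 of 15764). Counts were 0 without WT-8 replicate 2 (941 of 15432) or 3 (969 of 15439) or KO-8 replicate 1 (1012 of 15719). In the fit to all 19 libraries 0 passed (31 of 15503). At 16 weeks 4 of the 8 passed when all 19 libraries were fitted together (3181 of 15503 genes tested) and with no filter (939 of 32638). Without KO-16 replicate 1 (1867 of 15511) or 5 (1867 of 15508) 4 passed as well. Scaled to heart muscle markers 5 passed (1468 of 15503). With DESeq2 (1199 of 15503) or the earlier (385 of 14476) or later file alone (369 of 15453) 1 passed, and 0 in the other 16 alternatives. These counts at 16 weeks are a description, as the 8 genes were listed with that comparison known. All but Fech and Mb kept their sign at 16 weeks under the 24 alternatives; Fech was 0.26 when scaled to heart muscle markers and Mb -0.05 in the libraries over 20% 18S alone. The depth limits Hba-a2 and Hbb-bt in WT-16, where a library had as few as 0 and 4 pairs. No paired analysis was possible because the replicate numbers were given in accession order and pair no samples.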

Other observations

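The 2 files of each 16-week sample, taken as repeat runs of 1 library, gave similar levels of the abundant genes. The ratio of the later to the earlier file, in CPM without TMM factors, was 1.02 to 1.07 for Mb, 0.866 to 1.25 for Hbb-bs and 0.998 to 1.11 for Alas1 over the 10 samples. For Alas2, with as few as 34 pairs in a library, it was 0.855 to 2.38.

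The 4 globin genes together took 0.0577% to 0.125% of the counted pairs in WT-8, 0.0329% to 0.0748% in KO-8, 0.00204% to 0.0124% in WT-16, with a wider range of 0.00241% to 0.118% in KO-16. By this share KO-16 replicate 3, at 0.118%, lay within the range of WT-8, and the 4 other KO-16 libraries lay below it. The share is of all counted pairs, those on the ribosomal RNA gene included, and that gene took more of them at 16 weeks. In CPM the summed globin level was 412 to 917 in WT-8. On that scale KO-16 replicate 4, at 473 CPM, lay within the WT-8 range and replicate 3, at 1031 CPM, lay above it. KO-16 replicates 1, 2 and 5 lay below it, at 91.8, 191 and 38.2 CPM.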
